A study of Mus musculus with 30 samples.

Results

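Lysosomal hydrolases and membrane proteins are described here through 41 named genes, chosen by symbol from the 17420 genes of the deposited expression table. All 41 were present, and all 41 passed the filter on low values in both tissues. They comprise 10 genes of sphingolipid degradation, 6 of glycosaminoglycan degradation, 4 of glycoprotein degradation, 4 of lipid ester and protein breakdown, 6 membrane glycoproteins and tetraspans, 8 transporters and channels, and 3 genes of hydrolase maturation and sorting. Cathepsins and the subunits of the proton pump were left out of the list. Each of 15 male mice, 4 months old, gave 1 quadriceps and 1 spinal cord library, 30 in all, with 3 in each of 10 groups. The study set mice lacking acid alpha-glucosidase (Gaa KO) against Gaa WT mice on 2 genetic backgrounds and asked what a gene therapy with secreted enzyme changed.

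Treated mice were Gaa KO on the B6;129;DBA2/J background. They had received an AAV9 vector for a secreted human GAA, driven by a liver-muscle promoter (LiMP), in the temporal vein at postnatal day 1 to 2. Untreated Gaa KO and Gaa WT mice were studied on the same background, called the mixed background below. All mixed-background groups, WT included, carried the genotype written Ltbp4D36/D36. The remaining groups were untreated Gaa KO and untreated Gaa WT mice on the B6;129 background. Mouse numbers are those of the labels and start again on each background. Gaa KO mice were 1, 2 and 3 and WT mice 4, 5 and 6 on B6;129, while on the mixed background treated mice were 21, 22 and 24, KO mice 6, 7 and 8, and WT mice 1, 3 and 4. Library values are listed in that order.

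Lysosomes break down glycolipids, glycosaminoglycans, glycoproteins, lipid esters and glycogen with acid hydrolases that are tagged with mannose phosphate and sorted to the organelle by receptors. Highly glycosylated membrane proteins line the organelle, and transporters and channels export the products and set its ionic conditions. Loss of acid alpha-glucosidase, the enzyme that degrades glycogen in lysosomes, causes Pompe disease, in which glycogen fills lysosomes of muscle fibres and motor neurons. Many genes of this system carry a short promoter element read by the transcription factor TFEB and its relatives.

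Depth was 1.69e+07 to 3.71e+07 recovered reads in quadriceps and 1.92e+07 to 3.42e+07 in cord libraries. Signal is the deposited normalized read count, and 3 reads corresponded to a signal of 0.0987 to 0.216 in quadriceps and 0.0536 to 0.111 in cord. The targeted gene matched the KO or WT label of every library, which does not check the labels of treatment. Gaa averaged 18.0 ± 0.913 in treated KO, 14.9 ± 2.91 in KO and 213 ± 42.7 in WT quadriceps of the mixed background, and 15.8 ± 0.426 in KO against 275 ± 29.0 in WT quadriceps on B6;129 (signal, mean ± SD, n = 3 each). In cord it averaged 9.21 ± 1.10 in treated KO, 12.1 ± 1.41 in KO and 138 ± 6.40 in WT mice of the mixed background, and 16.8 ± 1.02 in KO against 225 ± 9.40 in WT mice on B6;129. These reads were assigned to the mouse gene and are no measure of the human transgene. Whether any of them came from the transgene was not tested. By limma, Gaa was not called between treated and untreated KO in quadriceps (log2 0.28, adjusted p 0.158) or cord (-0.37, adjusted p 0.141). The difference between these 2 effects was called (0.65, adjusted p 0.00732). Summed signal of 8 muscle fibre markers was 128588 to 244232 in quadriceps, and that of 6 neuron markers was 3798 to 6447 in cord against 1.93 to 9.32 in quadriceps. Muscle markers stood high in 2 cord libraries, WT 3 of the mixed background with a summed signal of 1547 and treated 24 with 1256, against 32.5 to 444 in the other cord libraries. The same 2 had the highest summed signal of 5 Schwann cell markers, 547 and 876, against 84.1 to 500 in the other cord libraries. Background and column series cannot be told apart, since all B6;129 samples stand in series A and all mixed-background samples in series B of the table. The mitochondrial share of cord reads was 13.2% to 17.1% in mixed-background and 6.99% to 7.70% in B6;129 libraries.

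Per kilobase of exon, Psap was the most abundant of the 41 genes in both tissues of B6;129 WT mice. Psap, the precursor of the saposins that activate sphingolipid hydrolases, had 426 units of signal per kilobase in quadriceps and 374 in cord. Laptm4a, a membrane protein of late endosomes and lysosomes, followed with 223 in quadriceps, and Lamp1, a major glycoprotein of the lysosomal membrane, with 212. Galc, Galns and Glb1 were the lowest in quadriceps at 0.506, 0.575 and 0.717 units per kilobase, and Mfsd8 was the lowest in cord at 1.04. Length here is that of all annotated exons of a gene merged, 14879 bases for Galc and 9414 for Mfsd8, so these ranks depend on it. Before division by length, Galc averaged 7.53 and Glb1 2.16 in quadriceps, and Mfsd8 averaged 9.76 and Galns 3.32 in cord. The library kit does not mark strand, and exons of 15 members share bases with another gene. The shared part exceeded 10% of exonic bases for Arsb (39.9%, with the non-coding genes Gm26527 and Gm47210), Arsa (18.8%, with the antisense gene C230037L18Rik) and Hexa (12.8%, with Tmem202), so part of their signal may belong to those neighbours.

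In quadriceps of B6;129 mice, 20 of the 41 members were higher and 2 were lower in Gaa KO than in WT. The test was limma on log2(signal + 0.5), with Benjamini-Hochberg adjustment over 14113 genes and an adjusted p under 0.05 as the call. Over all genes tested, 35.8% were called, 16.7% higher and 19% lower. On the mixed background the count was again 20 higher and 2 lower, against 39.4% of all genes called, 17.1% higher and 22.3% lower. The median log2 difference of the members was 0.32 on B6;129 and 0.31 on the mixed background, where that of all genes was -0.02 and -0.04. The 2 lists of higher members shared 17 genes, 85% of each. Psap, Scarb2 and Ctns were called higher on B6;129 and not on the mixed background, and Arsb, Ppt1 and Sumf1 the other way round. A direct test of whether the backgrounds differed in their KO effect called none of the 41 members by limma, edgeR or DESeq2. By limma it called 0.283% of all genes. At an unadjusted limma p under 0.05 there were 3 members, against 1537 of all 14113 genes.

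**Figure D1:**
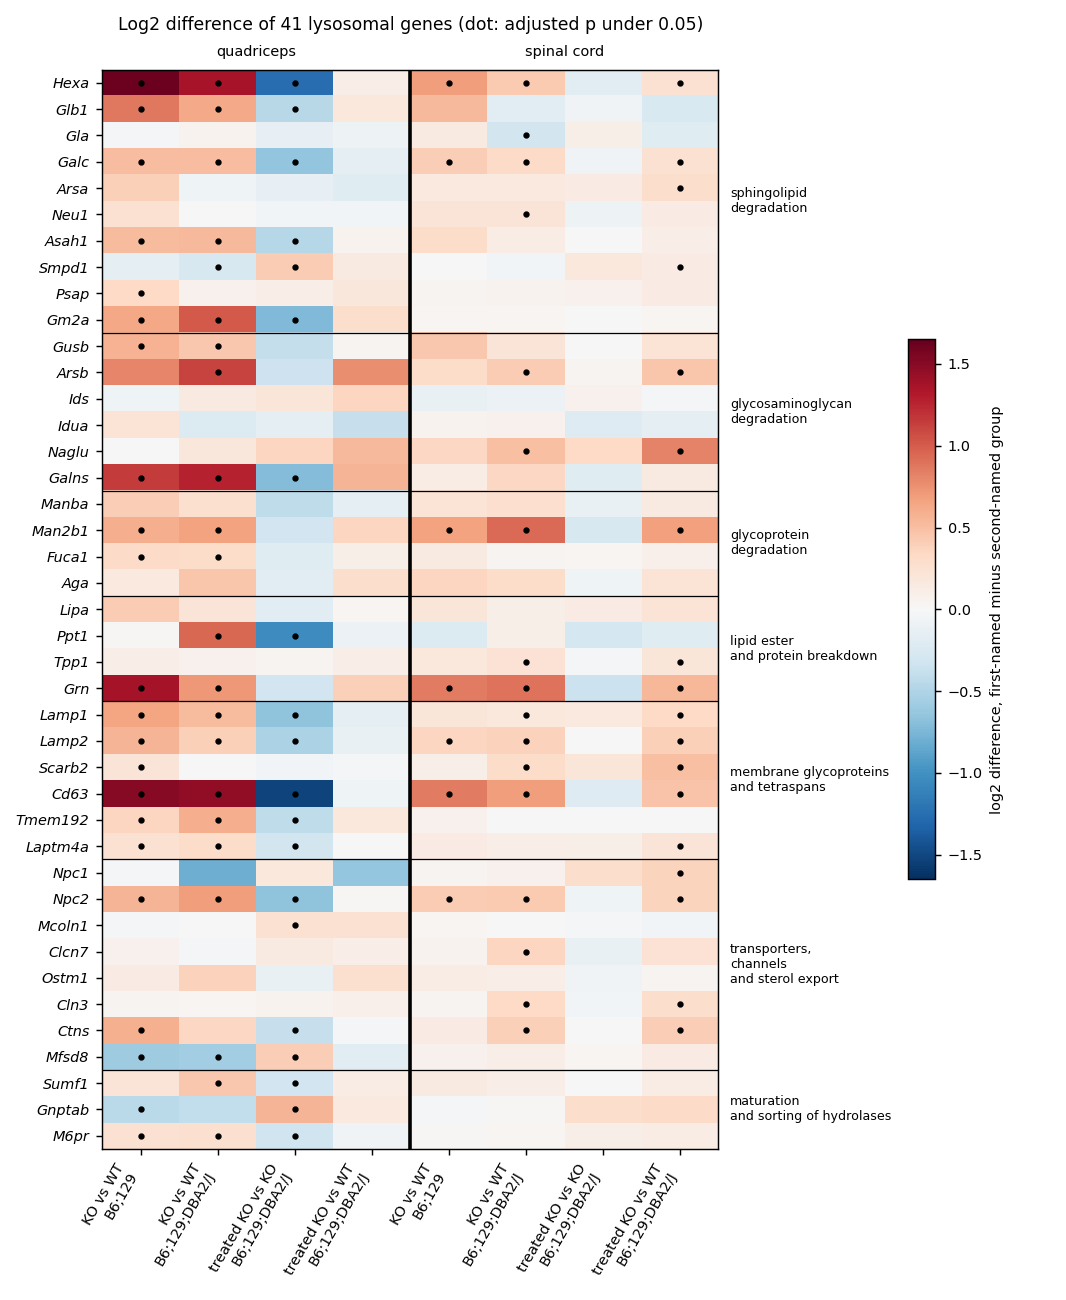
Log2 difference in signal of the 41 members (rows, grouped by role) in 8 comparisons (columns), 4 in quadriceps and 4 in spinal cord; B6;129;DBA2/J is the mixed background, colour runs from blue (lower in the first-named group) to red (higher), and a dot marks an adjusted p under 0.05. Red prevails in the KO columns of quadriceps, blue in the treated against KO column of quadriceps, and the treated against KO column of cord has no dot.

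Of the 10 sphingolipid genes, 6 were called higher on B6;129, and 5 were called higher and 1 lower on the mixed background. Signal of Hexa, the alpha subunit of beta-hexosaminidase, was 155, 174 and 162 in KO and 51.1, 52.9 and 55.3 in WT libraries on B6;129. It was 169.6, 143 and 158 in KO and 55.0, 52.8 and 76.5 in WT libraries on the mixed background. Every KO library lay well above every WT library of its background. Hexa rose by a log2 difference of 1.61 ± 0.11 (SE, adjusted p 4.66e-07) on B6;129 and 1.36 ± 0.11 (adjusted p 2.13e-06) on the mixed background. Gm2a, the activator protein that presents gangliosides to hexosaminidase, had 29.3, 26.6 and 31.9 in KO and 17.4, 22.2 and 16.7 in WT libraries on B6;129, and 35.5, 29.8 and 31.4 in KO and 15.4, 18.4 and 13.5 in WT libraries on the mixed background. Its KO and WT libraries were apart on both backgrounds, with log2 differences of 0.63 ± 0.14 (adjusted p 0.00296) and 1.01 ± 0.14 (adjusted p 8.65e-05). Glb1, which encodes beta-galactosidase, had 4.25, 4.29 and 4.49 in KO and 1.84, 2.10 and 2.53 in WT libraries on B6;129. It rose by 0.87 ± 0.15 (adjusted p 5.35e-04) there and by 0.63 ± 0.15 (adjusted p 0.00456) on the mixed background, with no overlap of libraries on either. Galc, which degrades galactolipids of myelin, rose by 0.51 and 0.51 (log2, adjusted p 0.0126 and 0.0124), and Asah1, the acid ceramidase, by 0.52 and 0.53 (adjusted p 0.0126 and 0.0104), B6;129 first.

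The remaining members of this group differed among themselves. Smpd1, the acid sphingomyelinase, had 80.9, 78.1 and 81.8 in KO and 93.8, 95.9 and 99.6 in WT libraries on the mixed background. All its KO libraries were the lower ones, and it fell by 0.26 on the log2 scale (adjusted p 0.00231), with -0.15 (adjusted p 0.0542) on B6;129. Psap had 1476, 1474 and 1435 in KO and 1180.1, 1151 and 1172 in WT libraries on B6;129, a rise of 0.32 (log2, adjusted p 0.00273). On the mixed background Psap libraries overlapped, with 0.08 (adjusted p 0.412). Gla, alpha-galactosidase A, Arsa, which removes sulfate from sulfatide, and Neu1, the lysosomal sialidase, were not called on either background, with log2 differences of -0.03, 0.40 and 0.26 on B6;129 and 0.05, -0.07 and -0.01 on the mixed background.

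Among the 6 enzymes of glycosaminoglycan degradation, 2 rose on B6;129 and 3 on the mixed background. Galns, a sulfatase of keratan sulfate, had 4.73, 3.25 and 4.06 in KO and 1.19, 1.87 and 1.51 in WT libraries on B6;129, and 4.52, 3.58 and 3.21 in KO and 0.942, 1.41 and 1.46 in WT libraries on the mixed background. Its signal was low in every library, yet the lowest KO value stood above the highest WT value on both backgrounds. Galns rose by 1.16 ± 0.19 (log2 ± SE, adjusted p 4.88e-04) on B6;129 and 1.27 ± 0.19 (adjusted p 2.13e-04) on the mixed background. Gusb, beta-glucuronidase, rose by 0.57 (adjusted p 0.00948) and 0.44 (adjusted p 0.0335). Arsb, a sulfatase of dermatan sulfate, had 15.6, 10.5 and 10.8 in KO and 6.21, 7.61 and 3.15 in WT libraries on the mixed background, and rose there by 1.11 (adjusted p 0.0104). The Arsb value on B6;129 was 0.80 (adjusted p 0.0533). Ids, Idua and Naglu, which take part in heparan sulfate breakdown, were not called on either background, with log2 differences between -0.23 and 0.23.

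Of the 4 glycoprotein enzymes, Man2b1 and Fuca1 rose on both backgrounds. Man2b1, the lysosomal alpha-mannosidase, had 23.0, 24.2 and 27.4 in KO and 16.5, 15.8 and 16.1 in WT libraries on B6;129, and 29.5, 28.2 and 23.2 in KO and 17.7, 15.5 and 16.9 in WT libraries on the mixed background. Its libraries did not overlap, and the log2 differences were 0.60 (adjusted p 0.0104) and 0.67 (adjusted p 0.00535). Fuca1, alpha-fucosidase, rose by a smaller 0.32 (adjusted p 0.00564) and 0.30 (adjusted p 0.00787), with library ranges also apart. Manba, beta-mannosidase, and Aga, which cleaves the asparagine-linked sugar, were not called, at 0.41 and 0.17 on B6;129 and 0.27 and 0.46 on the mixed background. Grn, which encodes progranulin, a secreted and lysosomal precursor protein, had 55.6, 50.9 and 60.4 in KO and 18.0, 24.3 and 21.3 in WT libraries on B6;129, and 52.0, 42.1 and 43.2 in KO and 22.3, 25.3 and 37.0 in WT libraries on the mixed background. Grn rose by 1.38 (adjusted p 4.52e-05) on B6;129 and 0.72 (adjusted p 0.00472) on the mixed background, again without overlap. Ppt1, the thioesterase that removes palmitate from proteins, had 37.5, 44.4 and 37.8 in KO and 23.2, 20.1 and 18.2 in WT libraries on the mixed background, a rise of 0.95 (adjusted p 0.00235). On B6;129 its libraries overlapped, with 0.01 (adjusted p 0.964). Lipa, the acid lipase, and Tpp1, a tripeptidyl peptidase, were not called on either background, at 0.42 and 0.12 on B6;129 and 0.22 and 0.07 on the mixed background.

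All 6 membrane glycoproteins and tetraspans were called higher in KO quadriceps on B6;129, and 5 of 6 on the mixed background. Cd63, a tetraspanin of late endosomes and lysosomes, had 313, 371 and 365 in KO and 134, 122 and 115 in WT libraries on B6;129. It had 411, 314 and 392 in KO and 131, 124 and 149 in WT libraries on the mixed background. The groups were far apart on both, with log2 differences of 1.50 ± 0.11 (SE, adjusted p 6.10e-07) and 1.46 ± 0.11 (adjusted p 8.25e-07). Lamp1 had 882, 915 and 870.0 in KO and 590.1, 548 and 566 in WT libraries on B6;129, and 899.9, 819.6 and 870.1 in KO and 602, 599.9 and 597 in WT libraries on the mixed background. Replicates of Lamp1 lay close together, and it rose by 0.65 ± 0.06 (adjusted p 2.25e-06) and 0.52 ± 0.06 (adjusted p 1.12e-05). Lamp2, a membrane protein needed for fusion of autophagosomes with lysosomes, had 166, 149.7 and 156 in KO and 108, 105 and 107 in WT libraries on B6;129 and rose by 0.56 (adjusted p 8.31e-05) there and 0.39 (adjusted p 0.00105) on the mixed background. Laptm4a had 497, 505 and 503 in KO and 406, 412 and 398 in WT libraries on the mixed background, a small rise of 0.31 (adjusted p 7.47e-04) with tight replicates, and 0.25 (adjusted p 0.00383) on B6;129. Tmem192, a lysosomal membrane protein, rose by 0.36 (adjusted p 0.0336) and 0.60 (adjusted p 0.00164), and Scarb2, the receptor that carries glucocerebrosidase to lysosomes, by 0.22 (adjusted p 0.0472) on B6;129, with 0.01 (adjusted p 0.938) on the mixed background.

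The 8 transporters and channels were divided. Npc2, which binds cholesterol in the lysosomal lumen, had 67.8, 67.4 and 74.0 in KO and 46.1, 55.9 and 40.3 in WT libraries on B6;129, and 74.4, 74.3 and 69.5 in KO and 42.9, 45.7 and 45.9 in WT libraries on the mixed background. Its KO libraries were all above its WT libraries, with 0.56 (adjusted p 0.00158) and 0.69 (adjusted p 3.25e-04). Mfsd8, a chloride channel of the lysosomal membrane, had 15.7, 18.6 and 18.4 in KO and 28.8, 26.4 and 24.7 in WT libraries on B6;129, and 15.8, 22.4 and 18.8 in KO and 28.6, 30.1 and 26.1 in WT libraries on the mixed background. It ran opposite to most members, and was lower at -0.59 (adjusted p 0.00300) and -0.57 (adjusted p 0.00337) on the log2 scale. Ctns, the cystine transporter, rose by 0.59 (adjusted p 0.00557) on B6;129, with 0.35 (adjusted p 0.0678) on the mixed background. Npc1, the membrane partner of Npc2, varied widely, with 46.4, 66.9 and 58.5 in KO and 76.9, 47.0 and 272 in WT libraries on the mixed background, and was not called. Mcoln1, a cation channel, Clcn7, a chloride-proton exchanger, Ostm1, the accessory subunit of Clcn7, and Cln3, a membrane protein mutated in juvenile Batten disease, were not called on either background, with log2 differences between -0.04 and 0.38.

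The 3 genes of maturation and sorting went different ways. M6pr, the cation-dependent mannose phosphate receptor, had 43.5, 44.3 and 43.2 in KO and 34.5, 38.2 and 37.6 in WT libraries on B6;129, and rose by 0.25 (adjusted p 0.0120) there and 0.26 (adjusted p 0.00873) on the mixed background. Sumf1, which activates sulfatases in the endoplasmic reticulum, rose by 0.44 (adjusted p 0.00570) on the mixed background, with 0.22 (adjusted p 0.139) on B6;129. Gnptab, which encodes the enzyme that starts the mannose phosphate tag, had 26.1, 26.3 and 21.9 in KO and 33.6, 36.7 and 30.9 in WT libraries on B6;129 and fell by 0.44 (log2, adjusted p 0.0437). Its value on the mixed background was -0.40 (adjusted p 0.0575). On B6;129, leaving out 1 library at a time ended calls, with these adjusted p-values, for M6pr (without WT 4, 0.0566), Galc (without KO 3 or WT 4, 0.0517 to 0.0553), Tmem192 (without any 1 library other than KO 1 and WT 4, 0.0722 to 0.131), Scarb2 (without any 1 of the 6 libraries, 0.0734 to 0.124), Asah1 (without KO 3, 0.0558) and Gnptab (without any 1 of the 6 libraries, 0.0530 to 0.159). On the mixed background it ended those of Gusb (without WT 1, KO 6 or KO 7, 0.115 to 0.150), Asah1 (without KO 6, 0.0558) and Arsb (without KO 6, 0.0516).

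**Figure D2:**
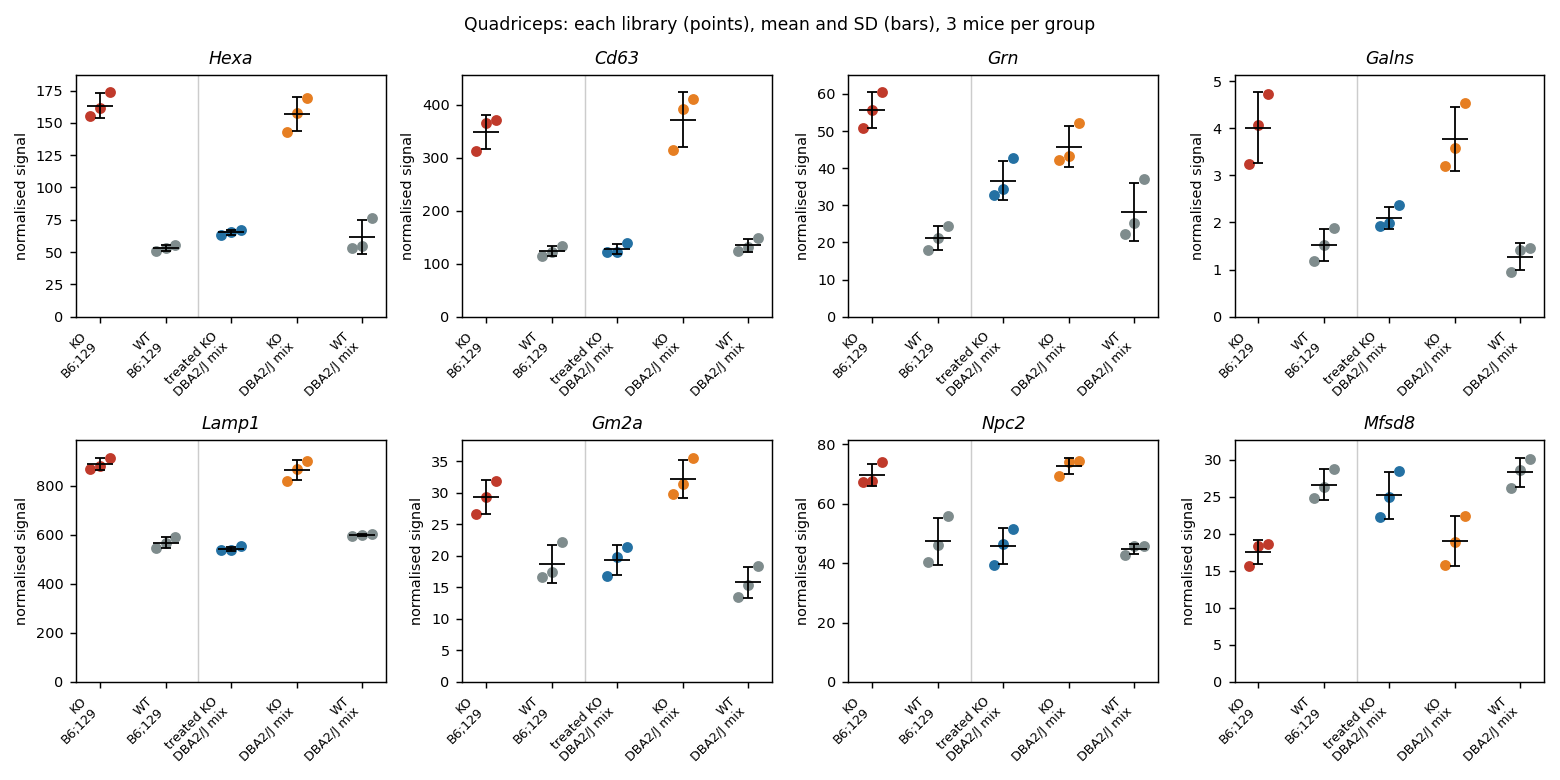
Signal (linear axis from 0) in each quadriceps library for 8 members, with points for libraries and bars for the mean and SD of 3; groups run KO and WT of B6;129, then treated KO, KO and WT of the mixed background (DBA2/J mix). Cd63 reads 139, 122 and 123 in treated KO libraries, 411, 314 and 392 in KO and 131, 124 and 149 in WT libraries of the mixed background, and Mfsd8 is lower in KO than in WT groups.

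Markers of macrophages moved with these changes. All 15 macrophage markers were called higher in KO quadriceps on B6;129 and 14 of 15 on the mixed background. Their summed signal was 213 to 298 in KO and 53.6 to 70.3 in WT libraries on B6;129, and 63.8 to 153 in treated KO, 168 to 359 in KO and 92.3 to 127 in WT libraries on the mixed background. Of 6 fibroblast markers, 5 were higher on B6;129 and 4 on the mixed background, and of 6 endothelial markers 5 and 4 were lower. Of the 8 muscle fibre markers, 4 and 4 were lower and none higher, and no defining marker of macrophages was at 0. The part of these cells in the members' changes was not tested. In bulk tissue, fewer cells of a type and less RNA per cell cannot be told apart.

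**Figure D3:**
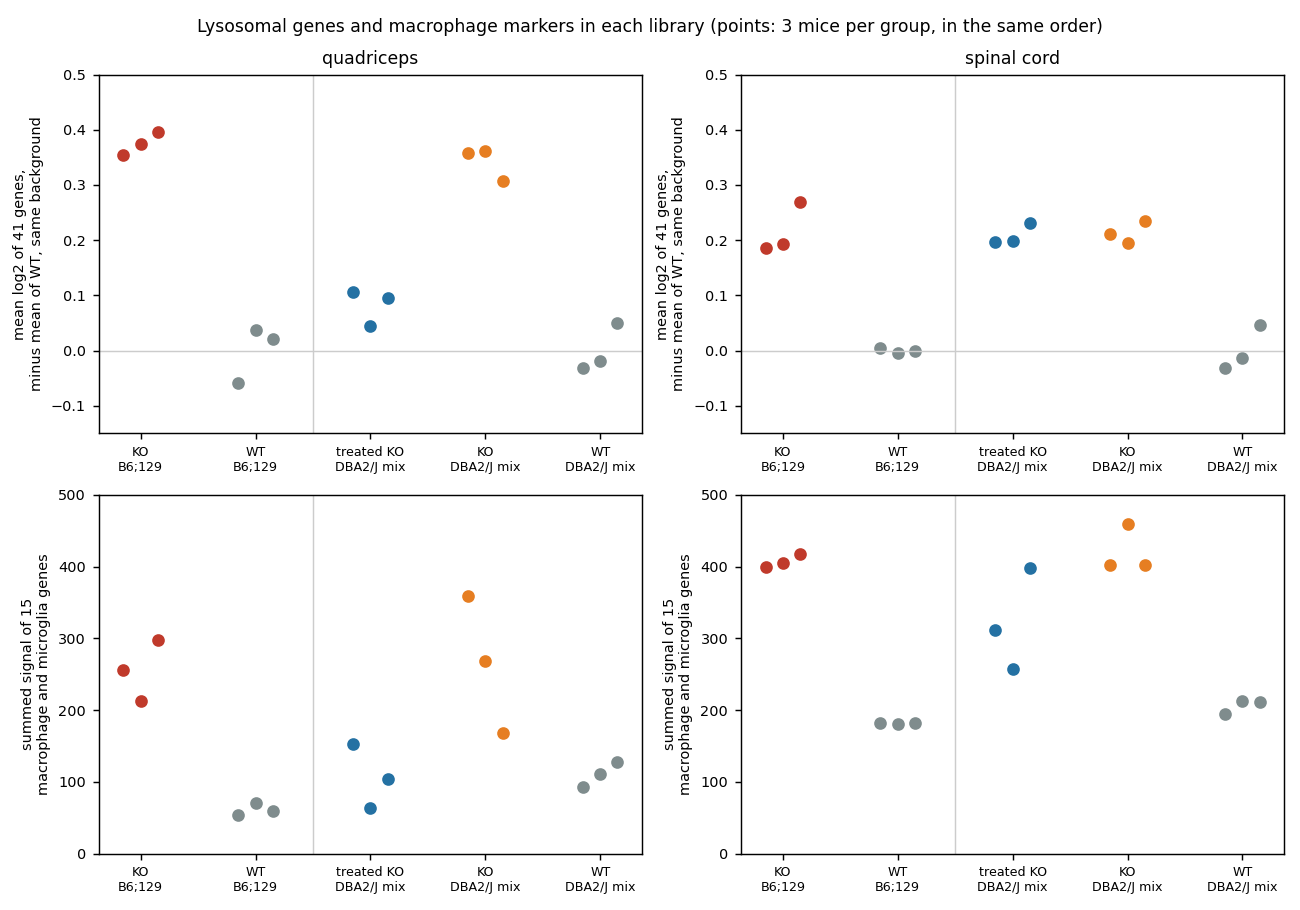
Top: mean over the 41 members of the log2 difference of each library from the WT mean of its tissue and background; bottom: summed signal of 15 macrophage and microglia markers in the same libraries. Quadriceps KO libraries lie at 0.31 to 0.40 in the top panel and treated KO libraries at 0.04 to 0.11, while cord treated KO libraries (0.20 to 0.23) and cord KO libraries of the mixed background (0.20 to 0.23) lie together.

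Promoters of the members were searched for the letters TCACGTG on either strand, the core of the element read by TFEB. RefSeq promoter windows of GRCm38.p6, 250 bases before to 50 after the start, were at hand for 36 of the 41 members, and 9 of the 36 (25%) held the letters, against 4.29% of 27025 genes with such a window. The stretches around the matches are printed below for the 6 with the smallest adjusted p in B6;129 quadriceps, with the matches in capitals and each strand written in the direction of the gene.
Lamp1, chr8:13159085-13159166, plus strand: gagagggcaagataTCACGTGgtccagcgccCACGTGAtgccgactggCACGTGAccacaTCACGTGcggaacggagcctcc
Glb1, chr9:114401015-114401050, plus strand: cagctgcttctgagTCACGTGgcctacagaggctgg
Arsa, chr15:89477420-89477455, minus strand: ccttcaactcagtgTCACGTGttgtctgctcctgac
Sumf1, chr6:108185574-108185609, minus strand: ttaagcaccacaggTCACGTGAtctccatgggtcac
Clcn7, chr17:25133361-25133415, plus strand: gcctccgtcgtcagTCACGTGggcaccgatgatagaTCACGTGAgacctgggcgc
Cln3, chr7:126583337-126583400, minus strand: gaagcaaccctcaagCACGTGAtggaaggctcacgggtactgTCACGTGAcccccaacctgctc

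Lamp1 held 4 matches, whose hexamers CACGTG began 61, 45, 28 and 15 bases before the annotated start. Clcn7 and Cln3 held 2 each, those of Cln3 before the second of its 2 listed starts. The hexamer of Glb1 began 48 bases before the start, that of Arsa 16 and that of Sumf1 11 bases before it. Gla, Mcoln1 and Naglu held the letters as well. Of the 9 members with the letters, 2 were called higher in KO quadriceps on B6;129 and 3 on the mixed background. Of the 27 members whose window lacked them, 15 and 14 were called higher. In KO cords, 0 of the 9 were called higher on B6;129 and 4 on the mixed background, and of the 27 it was 7 and 12. A match is a description of these windows only.

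Treated and untreated KO quadriceps differed in 20 of the 41 members, of which 16 were lower and 4 higher in treated mice. Over all genes tested, 40.6% were called, 17.1% lower and 23.6% higher. The median log2 difference of the members was -0.30, that of all genes 0.05. The comparisons of treated KO with KO and with WT share the treated libraries, and those of KO with WT and of treated KO with KO share the KO libraries.

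Cd63 had 139, 122 and 123 in treated KO libraries, 411, 314 and 392 in KO and 131, 124 and 149 in WT libraries. Treated libraries lay apart from KO and overlapped WT. Against KO, Cd63 fell by 1.53 (log2, SE 0.11, adjusted p 5.68e-07). Hexa had 65.5, 63.4 and 67.3 in treated KO libraries, again within the WT range and apart from KO, and fell by 1.25 (SE 0.11, adjusted p 2.65e-06). Lamp1 had 554, 537 and 537 in treated KO libraries, 899.9, 819.6 and 870.1 in KO and 602, 599.9 and 597 in WT libraries. The treated libraries were below both other groups, with -0.67 on the log2 scale against KO (adjusted p 1.41e-06) and -0.14 (adjusted p 0.151) against WT. Smpd1 ran the other way, with 108, 103 and 111 in treated KO, 80.9, 78.1 and 81.8 in KO and 93.8, 95.9 and 99.6 in WT libraries. Its treated libraries exceeded all others, and it rose by 0.41 (adjusted p 6.22e-05) against KO.

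By role, 5 of the 10 sphingolipid genes were lower in treated than in KO quadriceps and 1, Smpd1, was higher. Gm2a had 21.3, 16.8 and 19.8 in treated KO against 35.5, 29.8 and 31.4 in KO libraries, with no overlap and -0.73 (adjusted p 9.19e-04). Galc was lower at -0.65 (adjusted p 0.00231), Asah1 at -0.47 (adjusted p 0.0187) and Glb1 at -0.45 (adjusted p 0.0261) on the log2 scale. Galns was the only enzyme of glycosaminoglycan degradation called, with 1.99, 1.92 and 2.37 in treated KO against 4.52, 3.58 and 3.21 in KO libraries and -0.71 (adjusted p 0.0100). None of the 4 glycoprotein enzymes was called, at -0.42 to -0.17. In the lipid ester and protein group, Ppt1 had 15.9, 28.3 and 15.3 in treated KO against 37.5, 44.4 and 37.8 in KO libraries. Treated 22 was the highest of its group, and the groups did not overlap, with -1.04 (adjusted p 0.00104). Grn had 42.7, 32.7 and 34.5 in treated KO, 52.0, 42.1 and 43.2 in KO and 22.3, 25.3 and 37.0 in WT libraries, with treated values that overlapped both other groups, and -0.32 (adjusted p 0.153) against KO.

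Of the 6 membrane proteins, 5 were lower in treated than in KO quadriceps. Lamp2 had 106, 116 and 108 in treated KO against 158, 172 and 144 in KO libraries, and Laptm4a had 403, 415 and 405 in treated KO against 497, 505 and 503 in KO libraries. Both were free of overlap, with -0.52 (adjusted p 1.03e-04) for Lamp2 and -0.30 (adjusted p 7.92e-04) for Laptm4a. Tmem192 fell by 0.43 (log2, adjusted p 0.0128), and Scarb2 was at -0.04 (adjusted p 0.693). Among transporters Npc2 had 51.5, 39.5 and 46.4 in treated KO against 74.4, 74.3 and 69.5 in KO libraries and fell by 0.67 (adjusted p 3.44e-04), and Ctns fell by 0.37 (adjusted p 0.0493). Mfsd8 and Mcoln1 were higher in treated mice, at 0.40 (adjusted p 0.0229) and 0.26 (adjusted p 0.0263). In the maturation group Sumf1 and M6pr were lower, at -0.32 (adjusted p 0.0309) and -0.32 (adjusted p 0.00190), and Gnptab was higher, at 0.56 (adjusted p 0.0115). Single libraries ended the calls of Mcoln1 (without any 1 library other than treated 24 and KO 8, 0.0631 to 0.0977), Ctns (without any 1 library other than treated 22 and treated 24, 0.0719 to 0.22), Tmem192 (without treated 22 or KO 6, 0.0510 to 0.0637), Mfsd8 (without any 1 library other than treated 21 and KO 7, 0.0503 to 0.112), Sumf1 (without any 1 library other than KO 8, 0.0528 to 0.0969), Asah1 (without treated 24, KO 6 or KO 7, 0.0515 to 0.0918), Gnptab (without treated 24 or KO 6, 0.0521 to 0.0527) and Glb1 (without treated 21 or KO 6, 0.0838 to 0.109), and the count of called members was 12 without KO 6.

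Treated KO and WT quadriceps did not differ in any of the 41 members at an adjusted p under 0.05 by limma, edgeR or DESeq2, while 2.98% of all genes were called by limma. At an unadjusted p under 0.05 there were 10 members, against 3105 of all 14113 genes, and the members' smallest adjusted p was 0.113. Log2 differences ran between -0.63 (Npc1) and 0.77 (Arsb), with standard errors of 0.06 to 0.51, so small differences were beyond reach. Libraries of 8 members were apart with treated mice higher and of 1, Lamp1, with treated mice lower, against 13.8% and 10.2% of all genes. The 8 were Smpd1, Psap, Ids, Galns, Tpp1, Mcoln1, Ostm1 and Cln3. Galns had 1.99, 1.92 and 2.37 in treated KO and 0.942, 1.41 and 1.46 in WT libraries, at 0.56 (adjusted p 0.117). Without treated 24, 1 member was called. Of 15 macrophage markers, 13 were lower in treated than in KO quadriceps and 0 were called between treated and WT mice. Of the other markers, 5 of 6 endothelial and 5 of 8 muscle fibre markers were higher in treated than in KO quadriceps, and 2 of 6 fibroblast markers were lower. Summed endothelial signal was 298 to 417 in treated KO, 152 to 209 in KO and 264 to 307 in WT libraries, that of muscle fibres 225764 to 244232 in treated KO, 128588 to 151945 in KO and 185452 to 221572 in WT libraries, and that of fibroblasts 626 to 939.7 in treated KO, 711 to 1359 in KO and 590.3 to 709 in WT libraries. The part of these cells in the members' values was not tested.

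**Figure D4:**
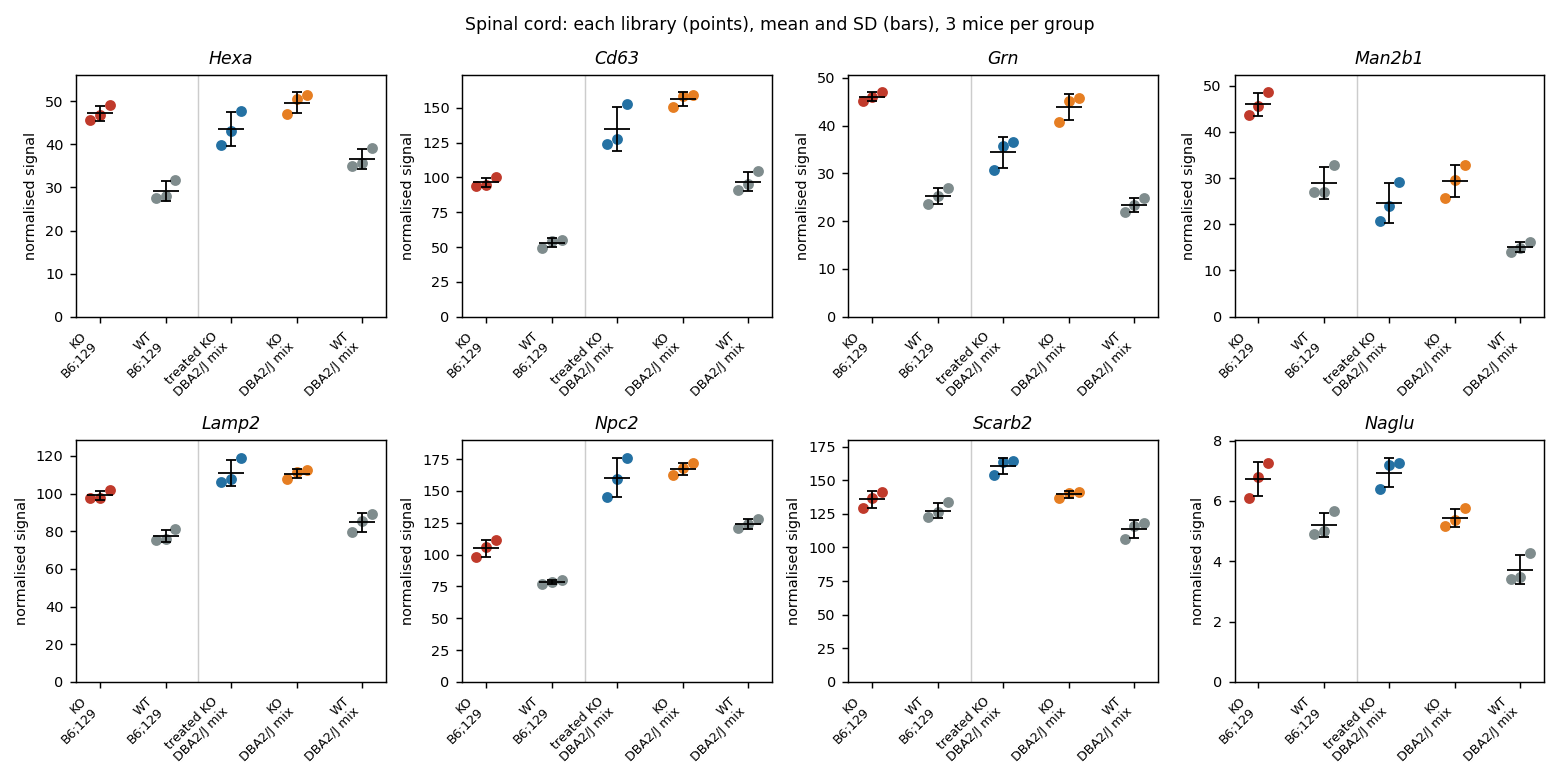
Signal (linear axis from 0) in each spinal cord library for 8 members, with points for libraries and bars for the mean and SD of 3; groups run KO and WT of B6;129, then treated KO, KO and WT of the mixed background (DBA2/J mix). Grn reads 35.8, 30.6 and 36.6 in treated KO, 45.8, 45.2 and 40.8 in KO and 21.8, 24.8 and 23.4 in WT libraries of the mixed background. Cd63 is higher on the mixed background than on B6;129 within KO and within WT cords, while WT cords of the mixed background overlap KO cords of B6;129.

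In spinal cord, 7 of the 41 members were higher and none was lower in Gaa KO than in WT on B6;129, against 1.16% of 15838 genes called, 0.998% higher and 0.158% lower. On the mixed background 16 were higher and 1 was lower, against 13% of all genes, 7.16% higher and 5.85% lower. Median log2 differences of the members were 0.15 and 0.16, those of all genes -0.02 and -0.01. All 7 members called on B6;129 were among the 16 of the mixed background, which is 100% of the shorter list and 43.75% of the longer. They were Hexa, Galc, Man2b1, Grn, Lamp2, Cd63 and Npc2, and the same 7 were called higher in quadriceps on both backgrounds. On B6;129, quantile normalization called 11 members and DESeq2 12, in both cases with Glb1 and Gusb, which limma did not call in cords of the mixed background. With the 6 compared libraries alone, 7 members were called on the mixed background. Shares of all genes called under these settings are not reported here. The KO effect did not differ between backgrounds for any member by limma or edgeR, and limma called 0.524% of all genes. At an unadjusted limma p under 0.05 there were 6 members, against 1860 of all 15838 genes. DESeq2 called Glb1 in that comparison, at a log2 difference of -0.75.

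Grn had 46.9, 46.0 and 45.1 in KO and 25.1, 23.6 and 26.9 in WT cords on B6;129, and 45.8, 45.2 and 40.8 in KO and 21.8, 24.8 and 23.4 in WT cords on the mixed background. Replicates were tight and the groups apart, with log2 differences of 0.86 ± 0.07 (SE, adjusted p 1.76e-05) and 0.90 ± 0.07 (adjusted p 2.19e-05). Cd63 had 94.7, 100.4 and 94.0 in KO and 49.4, 54.4 and 55.3 in WT cords on B6;129, and 151, 159 and 158 in KO and 95.4, 104 and 90.8 in WT cords on the mixed background. KO exceeded WT within each background, by 0.86 (adjusted p 1.76e-05) and 0.69 (adjusted p 9.88e-05), although WT cords of the mixed background stood near KO cords of B6;129. Hexa had 46.9, 49.1 and 45.7 in KO and 28.0, 27.6 and 31.8 in WT cords on B6;129, and 51.5, 50.5 and 47.0 in KO and 35.7, 35.0 and 39.2 in WT cords on the mixed background. It rose without overlap by 0.69 (adjusted p 1.26e-04) and 0.44 (adjusted p 0.00230). Man2b1 had 43.8, 45.6 and 48.6 in KO and 32.9, 27.1 and 26.9 in WT cords on B6;129, and 32.8, 25.7 and 29.7 in KO and 14.1, 16.2 and 14.8 in WT cords on the mixed background. Its log2 rises were 0.66 (adjusted p 0.0102) and 0.94 (adjusted p 3.25e-04).

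Lamp2 had 97.8, 97.6 and 102 in KO and 76.1, 81.2 and 75.6 in WT cords on B6;129, and rose by 0.35 (adjusted p 0.00334) there and 0.38 (adjusted p 7.19e-04) on the mixed background. Npc2 had 168, 172 and 163 in KO and 128, 124 and 120.5 in WT cords on the mixed background, with rises of 0.42 (adjusted p 0.00334) on B6;129 and 0.43 (adjusted p 9.02e-04) on the mixed background. Galc, whose substrate is abundant in myelin, rose by 0.40 (adjusted p 0.00539) and 0.32 (adjusted p 0.00735). In all 3 genes each KO cord was above each WT cord of its background. A further 9 members were called higher on the mixed background alone. Scarb2 had 141, 137 and 141 in KO and 119, 116 and 106 in WT cords and rose by 0.30 (adjusted p 0.00316), and Naglu had 5.78, 5.36 and 5.18 in KO and 3.43, 3.47 and 4.26 in WT cords and rose by 0.50 (adjusted p 0.00846). Both were free of overlap. The other rises were 0.21 for Neu1, 0.42 for Arsb, 0.24 for Tpp1, 0.17 for Lamp1, 0.35 for Clcn7, 0.33 for Cln3 and 0.39 for Ctns (log2, adjusted p 0.0124 to 0.0480). Gla fell by 0.30 (adjusted p 0.0463).

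By role, the cord counts of higher members on B6;129 and on the mixed background were 2 and 3 of 10 for sphingolipid degradation, 0 and 2 of 6 for glycosaminoglycan degradation, 1 and 1 of 4 for glycoprotein degradation, 1 and 2 of 4 for lipid ester and protein breakdown, 2 and 4 of 6 for membrane proteins, 1 and 4 of 8 for transporters, and 0 and 0 of 3 for maturation. On B6;129, leaving out 1 library at a time ended the call of Man2b1 (without KO 3, WT 5 or WT 6, 0.0547 to 0.0611). For the mixed background it ended those of Ctns (without KO 6 or KO 8, 0.0516 to 0.0596), Neu1 (without WT 1, KO 6 or KO 8, 0.0620 to 0.0771), Cln3 (without WT 3, KO 7 or KO 8, 0.0606 to 0.0830), Gla (without any 1 library other than WT 1 and WT 3, 0.0628 to 0.184), Lamp1 (without any 1 of the 6 libraries, 0.0745 to 0.127), Clcn7 (without any 1 library other than WT 1 and KO 7, 0.0504 to 0.0892) and Arsb (without any 1 library other than WT 3 and KO 7, 0.0658 to 0.128), and 11 members were called without KO 6 and 10 without KO 8. Over all genes, leaving out 1 library left 918 to 1892 called on the mixed background, against 2061 with all libraries. Microglia and macrophage markers moved with the members: 9 of 15 were called higher in KO cords on B6;129 and 13 on the mixed background. Their summed signal was 399 to 417 in KO and 181 to 182 in WT cords on B6;129, and 257 to 398 in treated KO, 402 to 459 in KO and 194 to 213 in WT cords on the mixed background. Of 6 endothelial markers, 0 were called higher in KO cords on B6;129 and 4 on the mixed background, where their summed signal was 50.9 to 60.9 in treated KO, 57.7 to 67.9 in KO and 40.2 to 41.8 in WT cords. Of 5 astrocyte markers, 1 was called higher in KO cords on each background. Their log2 differences ran from -0.25 to 1.02 on B6;129, with a median of 0.12. On the mixed background they ran from -0.17 to 1.40, with a median of 0.0044, so the summed signal does not stand for all 5. Summed astrocyte signal was 4116 to 4511 in KO and 3074 to 3375 in WT cords on B6;129. On the mixed background it was 5168 to 6179 in treated KO, 5304 to 5558 in KO and 3464 to 3769 in WT cords. Of 5 Schwann cell markers, 0 were called in KO cords on either background. The part of these cells in the members' changes was not tested.

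Treated and untreated KO cords did not differ in any member by limma at an adjusted p under 0.05, and 0% of all 15838 genes were called. At an unadjusted limma p under 0.05 there were 11 members, against 1697 of all 15838 genes. Of the members edgeR called 0, and DESeq2 called 3: Npc1 at a log2 difference of 0.30, Scarb2 at 0.20 and Grn at -0.36. The 0% of all genes is that of limma, and the share called by DESeq2 is not reported here. The members' log2 differences lay between -0.35 and 0.32, with standard errors of 0.04 to 0.15. Grn had 35.8, 30.6 and 36.6 in treated KO against 45.8, 45.2 and 40.8 in KO cords. Each treated cord was below each KO cord, at -0.35 (adjusted p 0.100). Naglu had 7.18, 6.38 and 7.26 in treated KO against 5.78, 5.36 and 5.18 in KO cords, with treated cords the higher, at 0.32 (adjusted p 0.253). Libraries were apart with treated mice higher for 8 members and lower for 2, against 6.25% and 6.02% of all genes.

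Treated KO cords exceeded WT cords of the mixed background in 18 members and were lower in none, against 16.8% of all genes called, 8.81% higher and 7.95% lower. With the 6 compared libraries alone, 8 members were called, and the share of all genes at that setting is not reported here. The members' median log2 difference was 0.21, that of all genes -0.0031. Scarb2 had 154, 164 and 165 in treated KO and 119, 116 and 106 in WT cords, at 0.50 (adjusted p 1.07e-04). Naglu, with 7.18, 6.38 and 7.26 in treated KO and 3.43, 3.47 and 4.26 in WT cords, had the largest difference, 0.82 (adjusted p 4.11e-04). Treated and WT cords were apart for both. Lamp2 had 108, 106 and 119 in treated KO and 79.5, 89.4 and 85.3 in WT cords, at 0.39 (adjusted p 5.69e-04). Grn, Lamp1 and Cd63 were higher by 0.55 (adjusted p 5.61e-04), 0.34 (adjusted p 0.00129) and 0.47 (adjusted p 0.00134). Npc2 had 146, 159.5 and 176 in treated KO and 128, 124 and 120.5 in WT cords, and Man2b1 had 24, 20.6 and 29.1 in treated KO and 14.1, 16.2 and 14.8 in WT cords. No treated cord overlapped a WT cord in these, at 0.37 (adjusted p 0.00195) and 0.68 (adjusted p 0.00216).

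The other calls were Hexa, Galc, Arsa, Smpd1, Arsb, Tpp1, Laptm4a, Npc1, Cln3 and Ctns, with log2 differences between 0.13 (Smpd1) and 0.46 (Arsb). Single libraries ended the calls of Galc (without WT 3 or WT 4, 0.0548 to 0.0723), Arsa (without any 1 library other than treated 21 and WT 4, 0.0677 to 0.0952), Hexa (without any 1 library other than treated 22 and WT 4, 0.0567 to 0.133), Cln3 (without any 1 library other than WT 1 and treated 24, 0.0504 to 0.115), Tpp1 (without WT 1, treated 24 or WT 3, 0.0603 to 0.0782), Smpd1 (without any 1 library other than WT 4, 0.0519 to 0.147) and Arsb (without WT 1, treated 21 or WT 4, 0.0515 to 0.0714), and the count was 12 to 18. Of the microglia and macrophage markers, 10 of 15 were higher in treated KO than in WT cords. Between treated and untreated KO cords 0 of them were called, where 0% of all genes were called. The median log2 difference of these 15 markers was -0.46 there. Their summed signal was 257 to 398 in treated KO and 402 to 459 in untreated KO cords. Of 6 oligodendrocyte markers, 4 were higher in treated than in WT cords, with a summed signal of 32381 to 42255 in treated KO and 25239 to 34424 in WT cords. Of 6 fibroblast and 6 endothelial markers, 3 and 2 were higher in treated KO than in WT cords. Of 5 Schwann cell markers, 0 were called in treated KO cords against KO or against WT. Their log2 differences were 0.65 to 1.40 against KO and 0.72 to 2.27 against WT. Summed Schwann signal was 143 to 876 in treated KO, 129 to 217 in KO and 84.1 to 547 in WT cords of the mixed background. The part of these cells in the members' values was not tested. Without both cord libraries that stood high in muscle markers, 15 members were called in KO against WT, 13 in treated KO against WT and 0 in treated against untreated KO of the mixed background.

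Tissues were compared directly through the difference of effects, quadriceps minus cord, fitted over all 30 libraries and 13187 genes. On B6;129 the KO effect differed between tissues in 8 members, 7 more positive and 1 more negative in quadriceps, against 25.4% of all genes called, 12.2% more positive and 13.1% more negative. In the mixed background it differed in 16, 12 more positive and 4 more negative, against 32.3% (13.6% and 18.7%), and the split was 11 and 1 after quantile normalization and 13 and 2 with the medians of all genes set equal. Hexa, Gm2a, Galns, Lamp1, Cd63 and M6pr were more positive in quadriceps on both, and Mfsd8 was more negative on both. Psap was more positive on B6;129, and Glb1, Fuca1, Ppt1, Tmem192, Laptm4a and Sumf1 on the mixed background. The KO effect on Cd63 was 1.50 in quadriceps and 0.86 in cord on B6;129, a difference of 0.64 (adjusted p 0.00130), and the difference was 0.77 (adjusted p 1.47e-04) on the mixed background. For Galns the differences were 1.04 (adjusted p 0.00110) and 0.93 (adjusted p 0.00224), and for Hexa 0.92 (adjusted p 3.25e-05) and 0.93 (adjusted p 2.30e-05). Mfsd8 gave -0.66 (adjusted p 0.00450) and -0.67 (adjusted p 0.00312). Scarb2, Clcn7 and Smpd1 also gave negative differences on the mixed background, at -0.29, -0.39 and -0.22. For Smpd1 the KO effect was -0.26 in quadriceps and -0.04 in cord, further from 0 in quadriceps.

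**Figure D5:**
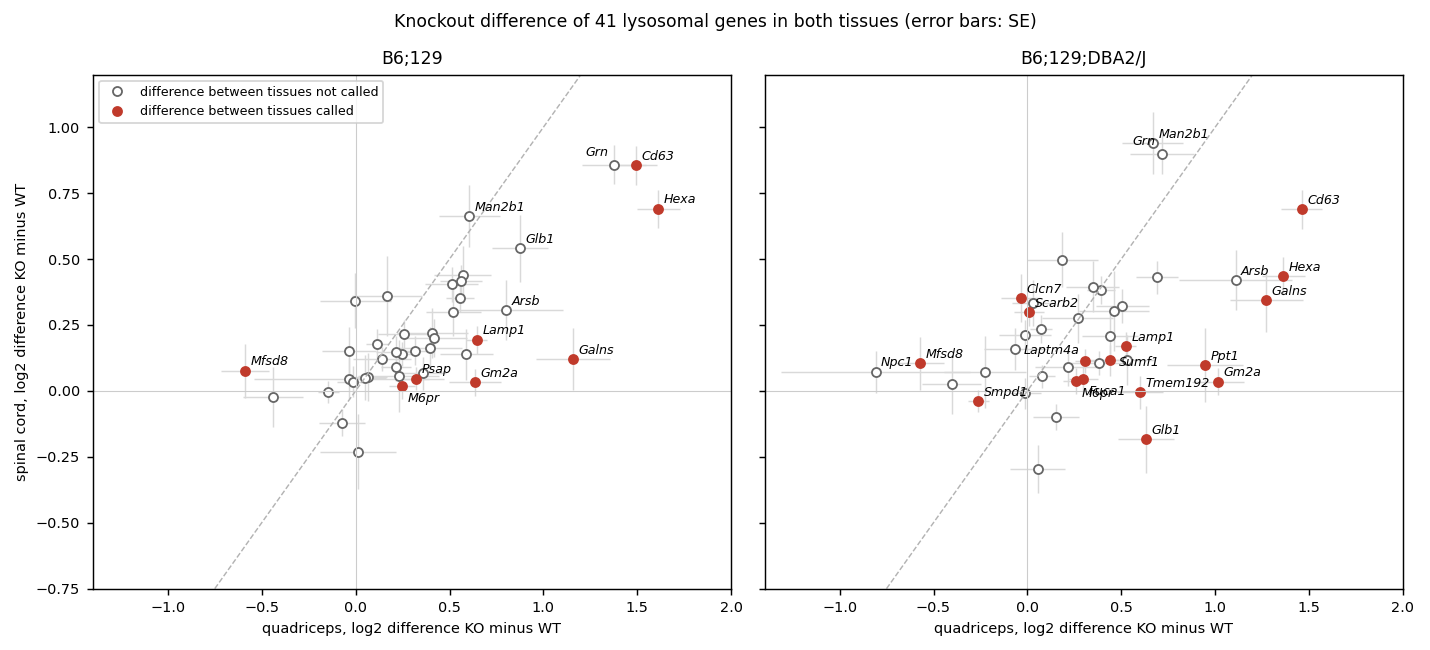
Log2 difference between KO and WT in quadriceps (horizontal axis) and in spinal cord (vertical axis) for the 41 members, with 1 panel per background, the mixed background on the right; bars are standard errors, the dashed line marks equal differences and filled red points are members whose difference between tissues was called. Cd63 and Hexa lie far to the right of the line and Mfsd8 to the left in both panels.

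Treatment changed 17 members differently in the 2 tissues, 15 more negative and 2 more positive in quadriceps (15 and 0 after quantile normalization), against 33.6% of all genes, 14% more negative and 19.6% more positive. All 6 membrane proteins were among the 15. The effect on Cd63 was -1.53 in quadriceps and -0.22 in cord, a difference of -1.31 (adjusted p 1.74e-07). Lamp1 had -0.67 in quadriceps and 0.17 in cord, a difference of -0.83 (adjusted p 1.44e-08), and Hexa -1.25 and -0.19, a difference of -1.06 (adjusted p 3.42e-06). Smpd1 and Mcoln1 were the 2 more positive members, at 0.24 and 0.29. Both tissues came from the same animals, and with the animal as a replicate block 9, 13 and 14 members were called in the B6;129 KO, mixed-background KO and treatment comparisons. That fit ended the calls of M6pr on both backgrounds (adjusted p 0.0579 and 0.0552), of Fuca1, Scarb2, Sumf1 and Clcn7 in the mixed-background KO comparison (0.0585 to 0.0694) and of Mcoln1, Fuca1, Scarb2 and Sumf1 for treatment (0.0538 to 0.105). It called Grn (0.0398) and Gnptab (0.0308) on B6;129, Asah1 (0.0372) and Gnptab (0.022) on the mixed background, and Gusb for treatment (0.0205).

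In the B6;129 comparison of tissues, leaving out 1 library ended the call of M6pr (without any 1 library other than quadriceps KO 1, quadriceps WT 5, quadriceps WT 6 and cord KO 3, 0.0502 to 0.101). In that of the mixed background it ended those of M6pr (without quadriceps WT 4, quadriceps KO 6, quadriceps KO 7, cord WT 3, cord WT 4 or cord KO 8, 0.0542 to 0.103), Laptm4a (without quadriceps WT 4, cord WT 3 or cord KO 8, 0.0540 to 0.0694), Fuca1 (without quadriceps WT 3, quadriceps WT 4, quadriceps KO 6, quadriceps KO 7, cord WT 3 or cord KO 6, 0.0582 to 0.0882), Scarb2 (without quadriceps WT 4 or cord WT 4, 0.0675 to 0.0681), Sumf1 (without any 1 library other than quadriceps WT 3, quadriceps KO 8, cord KO 6 and cord KO 8, 0.0521 to 0.113) and Clcn7 (without any 1 library other than quadriceps WT 1, quadriceps KO 8, cord WT 1, cord WT 4 and cord KO 7, 0.0557 to 0.0993). For treatment it ended those of Mcoln1 (without quadriceps treated 22, quadriceps KO 6, quadriceps KO 7, cord treated 21 or cord KO 8, 0.0553 to 0.0769), Tmem192 (without quadriceps KO 6, 0.0630), Ppt1 (without quadriceps treated 21, quadriceps treated 24, quadriceps KO 7, cord treated 22 or cord KO 6, 0.0690 to 0.104), Fuca1 (without quadriceps treated 21, quadriceps KO 6, quadriceps KO 7, cord treated 22 or cord KO 6, 0.0752 to 0.113), Scarb2 (without any 1 library other than quadriceps treated 24 and cord treated 21, 0.0536 to 0.133), Sumf1 (without quadriceps treated 21, quadriceps treated 22, quadriceps KO 6, quadriceps KO 7, cord treated 24 or cord KO 7, 0.0548 to 0.0871) and Asah1 (without any 1 library other than quadriceps KO 8 and cord KO 6, 0.0563 to 0.157), and 11 members were called without quadriceps KO 6.

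WT mice of the 2 backgrounds differed in no member in quadriceps by limma or edgeR, and limma called 2.57% of all genes. DESeq2 called 1 member, Scarb2. At an unadjusted limma p under 0.05 there were 4 members, against 2517 of all 14113 genes. In cord, 11 members were higher and 14 lower in WT mice of the mixed background than in B6;129 WT mice, against 66.8% of all genes called, 32.3% higher and 34.5% lower. The split was 10 and 16 after quantile normalization and 12 and 11 with the medians of all genes set equal. Leaving out 1 library at a time ended the calls of Neu1 (adjusted p 0.0827 to 0.223), Mfsd8 (0.0728 to 0.188), Scarb2 (0.0587 to 0.0595) and Aga (0.0629 to 0.0649). Tmem192 had 22.1, 22.1 and 22.8 in mixed-background and 10.8, 10.4 and 11.6 in B6;129 WT cords, at 1.00 (adjusted p 3.91e-09). Cd63 was at 0.86 (adjusted p 1.07e-07) and Laptm4a at 0.60 (adjusted p 3.08e-08), while Gnptab, at -1.03 (adjusted p 1.37e-06), Arsb, at -0.90 (adjusted p 6.36e-06), and Man2b1, at -0.92 (adjusted p 6.75e-06), were lower. Background and column series cannot be told apart in these values, and the mitochondrial share of reads differed in the same way.

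Of the 41 members, 9 were called in none of the 4 comparisons of KO with WT: Arsa, Ids, Idua, Manba, Aga, Lipa, Npc1, Mcoln1 and Ostm1. Other genes of the lysosome were counted from a list of 40, of which 39 were in the table and tested in quadriceps and 38 in cord. In KO quadriceps 12 were higher and 5 lower on B6;129, and 12 higher and 8 lower on the mixed background, against 16.7% higher and 19% lower of all genes on B6;129 and 17.1% and 22.3% on the mixed background. Lgmn, an asparaginyl endopeptidase, rose by 1.90 and 2.00, and Ifi30, a thiol reductase of antigen-processing cells, by 1.80 and 1.81 (log2, adjusted p 3.99e-07 to 3.40e-06). In treated against KO quadriceps 6 were higher and 7 lower, against 23.6% and 17.1% of all genes, with Lgmn at -2.15 (adjusted p 2.32e-07), and Sort1, a sorting receptor, and Atp13a2, a polyamine exporter, at 0.79 and 0.79. In KO cords 3 were higher on B6;129, Dnase2a, an acid endonuclease, among them, and 6 were higher and 1 lower on the mixed background, against 1.16% and 13% of all genes called in either direction. Treated against untreated KO cords gave 0 calls, and treated KO against WT cords 12 higher and 1 lower, against 8.81% and 7.95% of all genes.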

How the data were processed

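RNA-seq libraries of polyA RNA (NEBNext Ultra, single-end reads of 61 bases) were made from quadriceps and spinal cord of 15 mice, per the labels' protocols. The submitters' processing notes name the build GRCm38 and the tools limma, edgeR, RSEM and cutadapt, with no versions. The authors deposited a linear signal per gene, a normalized count for 17420 genes. All of its values (100%) gave whole reads within 0.001 once the library scale was undone. Treated cord columns were joined to samples by the animal number in the title, since 2 descriptions name the same column and another names a column that does not exist. Which treated cord library belongs to which animal therefore rests on the titles. Either joining leaves the groups the same.

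Signal was analysed as log2(signal + 0.5), and log2 differences on this scale understate changes of low genes. A gene was kept where 3 or more libraries of the tissue reached a signal of 1, which left 14113 in quadriceps, 15838 in cord and 13187 in both. The 15 libraries of a tissue entered 1 linear model with 5 groups, or all 30 libraries 1 model with 10 groups for differences between tissues, fitted with limma 3.58.1 in R 4.3.3 (eBayes with trend). P-values were adjusted by Benjamini-Hochberg over all genes kept, with 0.05 as the threshold. edgeR 4.0.16 (quasi-likelihood) and DESeq2 1.42.0 were run on the recovered reads as alternatives. edgeR called 5059 and 5411 genes in quadriceps and 192 and 1965 in cord for KO against WT on B6;129 and on the mixed background. Counts of members were also taken with another pseudocount, other filters, 2 other scalings, the compared libraries alone, each library left out in turn, and the animal as a block. Both tissues of an animal share its number in the labels, and within groups the correlation of deviations between them was 0.109 to 0.354, above that with group mates in 15 of 15 animals. Deviations were taken from the mean of 3 animals, which ties a positive correlation within an animal to negative ones with its group mates. The count of animals is therefore no separate evidence. Tables and figures used Python 3.11.15, pandas 2.3.3 and matplotlib 3.10.9. The fits were tested on simulated data.

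Members, gene lists and the rule for named genes were chosen with earlier results of these data known. By that rule, library values are given for up to 8 called members a comparison, taken by adjusted p, and in addition for up to 4 members a role group, called or not, whose order the rule did not fix. Of 17420 gene identifiers, 17388 (99.8%) were found in the GRCm38 annotation used for exon lengths and overlaps. Promoter sequences are from RefSeq. Values of some other lysosomal genes are not reported here. Reads are not counted molecules, so floors of 3 reads cover counting error only.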

Additional observations from a re-analysis of the deposited data

Results flagged for a closer look

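Differences of effect between tissues passed the direct test of that difference in 41 cases. All are log2 differences, quadriceps minus cord, from limma over 13187 genes at an adjusted p under 0.05, and all concern the same animals in both tissues.

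For KO against WT on B6;129 the 8 values were 0.92 for Hexa, 0.28 for Psap, 0.60 for Gm2a, 1.04 for Galns, 0.45 for Lamp1, 0.64 for Cd63, -0.66 for Mfsd8 and 0.23 for M6pr.

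For KO against WT on the mixed background the 16 values were 0.93 for Hexa, 0.81 for Glb1, -0.22 for Smpd1, 0.98 for Gm2a, 0.93 for Galns, 0.25 for Fuca1, 0.85 for Ppt1, 0.36 for Lamp1, -0.29 for Scarb2, 0.77 for Cd63, 0.60 for Tmem192, 0.20 for Laptm4a, -0.39 for Clcn7, -0.67 for Mfsd8, 0.33 for Sumf1 and 0.22 for M6pr.

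For treated KO against KO the 17 values were -1.06 for Hexa, -0.59 for Galc, -0.46 for Asah1, 0.24 for Smpd1, -0.72 for Gm2a, -0.24 for Fuca1, -0.75 for Ppt1, -0.83 for Lamp1, -0.52 for Lamp2, -0.25 for Scarb2, -1.31 for Cd63, -0.42 for Tmem192, -0.40 for Laptm4a, -0.60 for Npc2, 0.29 for Mcoln1, -0.33 for Sumf1 and -0.41 for M6pr.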

How the results depend on the processing

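Of 172 gene results called, 109 kept the call under every setting tried and 63 lost it under at least 1, in 300 of 2745 settings, and none reversed. Of 443 not called, 131 of 7373 settings gave a call, and 2 reversed: Psap at -0.32 and Ids at -0.19 in WT cords of the mixed background against B6;129 after quantile normalization. With no library left out, counts of members moved by over 1.5 times in 7 cases. DESeq2 called 12 in KO cords on B6;129 against 7 by limma, 3 in treated against KO cords against 0, 1 where backgrounds were compared for their KO effect in cord against 0, and 1 between WT quadriceps of the 2 backgrounds against 0. Quantile normalization gave 11 in KO cords on B6;129. With the compared libraries alone, 7 were called in KO against WT cords of the mixed background against 17, and 8 in treated KO against WT cords against 18. The cause was not tested, though a fit on 6 libraries has fewer samples for the spread. Shares of all genes called under these settings are not reported here.

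Leaving out 1 library at a time gave 17 to 21 members in KO against WT quadriceps on B6;129, 20 to 24 on the mixed background, 12 to 20 in treated against KO, 0 to 1 in treated KO against WT, 0 to 0 for the difference of backgrounds and 0 to 1 between WT groups. In cord the ranges were 6 to 7, 10 to 16, 0 to 0, 12 to 18, 0 to 0 and 22 to 25 in the same order. For differences between tissues they were 7 to 9, 11 to 18 and 11 to 18. These moves passed 1.5 times in treated against KO quadriceps (12 without KO 6), treated KO against WT quadriceps (1 without treated 24), KO against WT cords of the mixed background (11 without KO 6 and 10 without KO 8) and the treatment effect between tissues (11 without quadriceps KO 6). Between WT quadriceps, likewise, 1 member was called without WT 4 of B6;129 or without WT 3 of the mixed background. Over all genes, leaving out 1 library gave 4751 to 5291 calls in treated against KO quadriceps, against 5736 with all libraries. The ranges were 124 to 448 (all libraries 421) in treated KO against WT quadriceps and 918 to 1892 (2061) in KO against WT cords of the mixed background. For the treatment effect between tissues the range was 3890 to 4445 (4436). With the animal as a replicate block 9, 13 and 14 members were called in the 3 tissue comparisons, against 8, 16 and 17.

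After the data were seen, both cord libraries high in muscle markers were left out, which gave 15 members in KO against WT cords of the mixed background, 13 in treated KO against WT cords and 25 between WT cords. No scaling moved the median of all genes by over 0.1 on the log2 scale. With 3 libraries a group, standard errors of members reached 0.51 in quadriceps and 0.15 in cord.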
